A study of Mus musculus with 18 samples.

Results

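The gene encoding titin, 7 genes for proteins that anchor, cross-link or bind it in the cardiac sarcomere, and the kinase gene Alpk2 were followed through single mouse heart cells: Ttn, Myom1, Myom2, Mypn, Alpk2, Actn2, Mybpc3, Tcap and Ldb3. They were chosen by name, as a set of giant filament and scaffold genes, and make up 9 of the 35843 gene columns of the count tables. All 9 were found in every table.

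Cells came from hearts of Myh6/Esr1-Tomato mice at postnatal days 4, 7, 14 and 28 (P4, P7, P14, P28), with 2, 2, 2 and 6 chips of wells, and from 6 further P28 chips that mixed hearts given a hairpin RNA against Jun (shJun) with hearts given a non-targeting hairpin (shNT). In this strain the promoter of Myh6 drives a tamoxifen-dependent Cre that turns on the red reporter TDtomato in cardiomyocytes (CMs), and the mothers of the pups received tamoxifen. The hairpins were carried by lentivirus injected into the left ventricle of newborn hearts, and the files do not mark which cells took up the virus. The well tables named 2 shJun and 2 shNT animals, and each knockdown chip held 1 of each, 4 chips with the CM fraction and 2 with the other cells. P4 and P7 hearts were chopped and digested with an isolation kit, while P14 and P28 hearts were digested by Langendorff perfusion, so the method changed together with age. The well tables split the P14 wells into CM and NCM, the non-cardiomyocyte fraction. They carry no fraction label for the P4, P7 and wild-type P28 wells. Each chip held a single stage, and stage and chip cannot be told apart.

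Titin spans from the Z-disc, which borders the sarcomere, to the M-band at its middle, and works as a molecular ruler and spring. At the Z-disc its end is held by telethonin (Tcap) and by alpha-actinin 2 (Actn2), which cross-links thin filaments, with myopalladin (Mypn) and the PDZ and LIM protein Ldb3 as further scaffolds. In the A-band titin carries cardiac myosin-binding protein C (Mybpc3) along the thick filament, and at the M-band the myomesins (Myom1, Myom2) tie it to neighbouring thick filaments. Alpk2 encodes an alpha-kinase expressed in the heart. No role in the sarcomere scaffold is assumed for it here.

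The files give each gene by its Ensembl identifier: ENSMUSG00000051747 (Ttn), ENSMUSG00000024049 (Myom1), ENSMUSG00000031461 (Myom2), ENSMUSG00000020067 (Mypn), ENSMUSG00000032845 (Alpk2), ENSMUSG00000052374 (Actn2), ENSMUSG00000002100 (Mybpc3), ENSMUSG00000007877 (Tcap) and ENSMUSG00000021798 (Ldb3). In coordinates of GRCm38 with the GENCODE vM21 annotation, Ttn is at chr2:76703980-76982547 on the minus strand, Mybpc3 at chr2:91118144-91136516 on the plus strand, Myom1 at chr17:71002633-71126856 (plus), Myom2 at chr8:15057653-15133541 (plus), Mypn at chr10:63115795-63203952 (minus), Actn2 at chr13:12269426-12340760 (minus), Tcap at chr11:98383811-98384953 (plus) and Ldb3 at chr14:34526603-34588682 (minus). The annotated exons of Ttn cover 116.825 kb in 345 blocks, against 0.948 kb in 2 blocks for Tcap. Exons of Myom1 share 207 bases with those of Myl12a, a myosin light chain gene on the opposite strand that gave 25577 UMIs in the same cells against 33243 for Myom1. Whether reads were counted by strand is not given in the sources used here, so Myom1 values are uncertain to that extent.

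RefSeq start-site windows (GRCm38.p6, 250 bases before the start to 50 after it) matched 6 of the 9 members, and 3 are shown. Ttn and Mybpc3 are the 2 members with the highest mean correlation from cell to cell on the wild-type chips, and Ldb3 is shown because its window holds a match to the AP-1 motif, the motif of the factor that the hairpin targets. Capitals mark the matches to a MEF2 site in Ttn and Mybpc3, and to an AP-1 site and then a CArG box, the serum response factor motif, in Ldb3. Each line reads 5′ to 3′ along the gene's strand.
Ttn, chr2:76982498-76982797, minus strand: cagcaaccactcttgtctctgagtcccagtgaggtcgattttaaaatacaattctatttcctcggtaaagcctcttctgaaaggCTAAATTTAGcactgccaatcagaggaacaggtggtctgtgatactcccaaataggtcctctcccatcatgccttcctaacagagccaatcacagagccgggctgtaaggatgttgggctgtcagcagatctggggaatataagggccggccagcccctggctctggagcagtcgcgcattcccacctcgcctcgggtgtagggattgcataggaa
Mybpc3, chr2:91117894-91118193, plus strand: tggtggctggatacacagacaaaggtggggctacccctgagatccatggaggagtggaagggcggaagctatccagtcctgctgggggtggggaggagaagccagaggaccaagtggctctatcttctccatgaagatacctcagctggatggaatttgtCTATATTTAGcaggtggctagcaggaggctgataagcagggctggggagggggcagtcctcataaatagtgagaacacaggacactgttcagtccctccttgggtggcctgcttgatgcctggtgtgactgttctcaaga
Ldb3, chr14:34588558-34588857, minus strand: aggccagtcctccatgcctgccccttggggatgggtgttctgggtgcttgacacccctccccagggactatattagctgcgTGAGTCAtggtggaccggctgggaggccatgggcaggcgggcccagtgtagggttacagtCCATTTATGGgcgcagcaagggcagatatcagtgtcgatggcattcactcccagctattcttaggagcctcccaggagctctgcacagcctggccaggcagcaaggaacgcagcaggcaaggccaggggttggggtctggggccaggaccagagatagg
The MEF2 matches began 166 bases before the start of Ttn and 90 bases before that of Mybpc3. Both strands were searched, and 3.19% of the 32851 mouse windows of the same length held such a match. The AP-1 motif was TGANTCA, where N is any base, and 7.81% of windows held it. The CArG box was found in 1.63% of windows and, among the members, in Ldb3 and, 99 bases before the start, in Myom1. The Actn2 and Mypn windows held neither MEF2 nor AP-1 letters. A match is a stretch of letters and was not tested for binding here.

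The files count RNA molecules by a random tag on each (unique molecular identifier, UMI), with 11161784 to 133264535 UMIs per chip. Cells were clustered without the members, and clusters in which a list of 12 CM markers, among them Myh6, Tnnt2, Ryr2 and Pln, scored highest of the marker lists are called CM-like. In each of the 22 CM-like clusters at least 11 of the 12 markers were seen in 20% or more of the cells, but in 16 of them none of the markers was among the 10 leading genes. The leading genes of P28 cluster 12 (102 cells) included Ccl4, Cxcl2 and Plek, genes known from immune cells, and those of cluster 3 of the second shNT animal (254 cells) included Ccl21a and Sox7, known from endothelial cells, so the name is weak for these. Ttn had 6352 CPM (counts per 1000000 UMIs) in the first and 18520 in the second. Without both clusters 0 members were called in edgeR, Ttn changed by −0.52 from P4 to P28 on the log2 scale, and its share of member UMIs, described below, by −12.3 percentage points. All 12 CM markers had UMIs in each sum of CM-like cells used below. A chip entered the stage tests if it held at least 20 CM-like cells, which left P4 chips 1 and 2 (148 and 168 cells), P7 chip 2 (23), P14 chips 1 and 2 (301 and 148) and P28 chips 1, 3 and 5 (662, 593 and 505). CM-like cells made up 13.5 and 13.3% of the cells that passed the filter at P4, 1.34 and 1.99% at P7 and 25.4 and 29.3% at P14. They made up 61.0, 91.7 and 73.2% on P28 chips 1, 3 and 5, but 0.273 and 0.498% on chips 4 and 6. At P14, 285 of 301 and 147 of 148 came from wells of the CM fraction. The yield of CM-like cells thus differed between stages. The knockdown animals gave 760 and 810 cells for shJun and 1003 and 801 for shNT. At least 1 TDtomato UMI was seen in 74.3 and 85.7% of the CM-like cells on the P4 chips and 95.7% on P7 chip 2. The shares were 32.9 and 22.3% on the P14 chips and 34.3, 90.6 and 77.2% on P28 chips 1, 3 and 5. On the knockdown chips they were 0 to 0.676%, although the labels give all samples the same strain. Both P4 chips carried the same 2 animal names, so p-values measure a spread between samples that may be partly technical.

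Titin itself was the member with most UMIs in every sum. In CPM of the sum (scaled between sums by the trimmed mean of M values), Ttn stood at 13548 and 12696 in the P4 sums, 24131 in the P7 sum, 11529 and 13651 in the P14 sums, and 7117, 11048 and 8166 in the P28 sums. The P7 sum lay above all others, the P14 sums lay on both sides of the P4 sums, and the P28 sums lay below all others. Without this scaling both P14 sums (7621 and 11220 CPM) lay below the P4 sums (17710 and 14575). The unscaled P28 sums (7573, 9922 and 8496) overlapped those of P14. With TMM scaling Ttn at P28 was 0.669 times its P4 level (log2 change −0.58 ± 0.45, SE) and did not pass the edgeR quasi-likelihood test (adjusted p = 0.542). Where CMs were called one by one by their marker score instead of by cluster, the change was 0.23. That setting took in 688 and 898 cells on the P4 chips in place of 148 and 168. On P28 chips 1, 3 and 5 it took in 996, 647 and 679 in place of 662, 593 and 505, and 34 cells of P28 chip 2 entered as well. At P4 the CM-like cluster held 316 cells, and all other clusters were named endothelial, fibroblast, erythroid, mural or macrophage. Cells of clusters named after other types were thus among those added at P4. The direction of Ttn in the sums differed once the added cells were counted, and their types were not tested cell by cell.

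**Figure D1:**
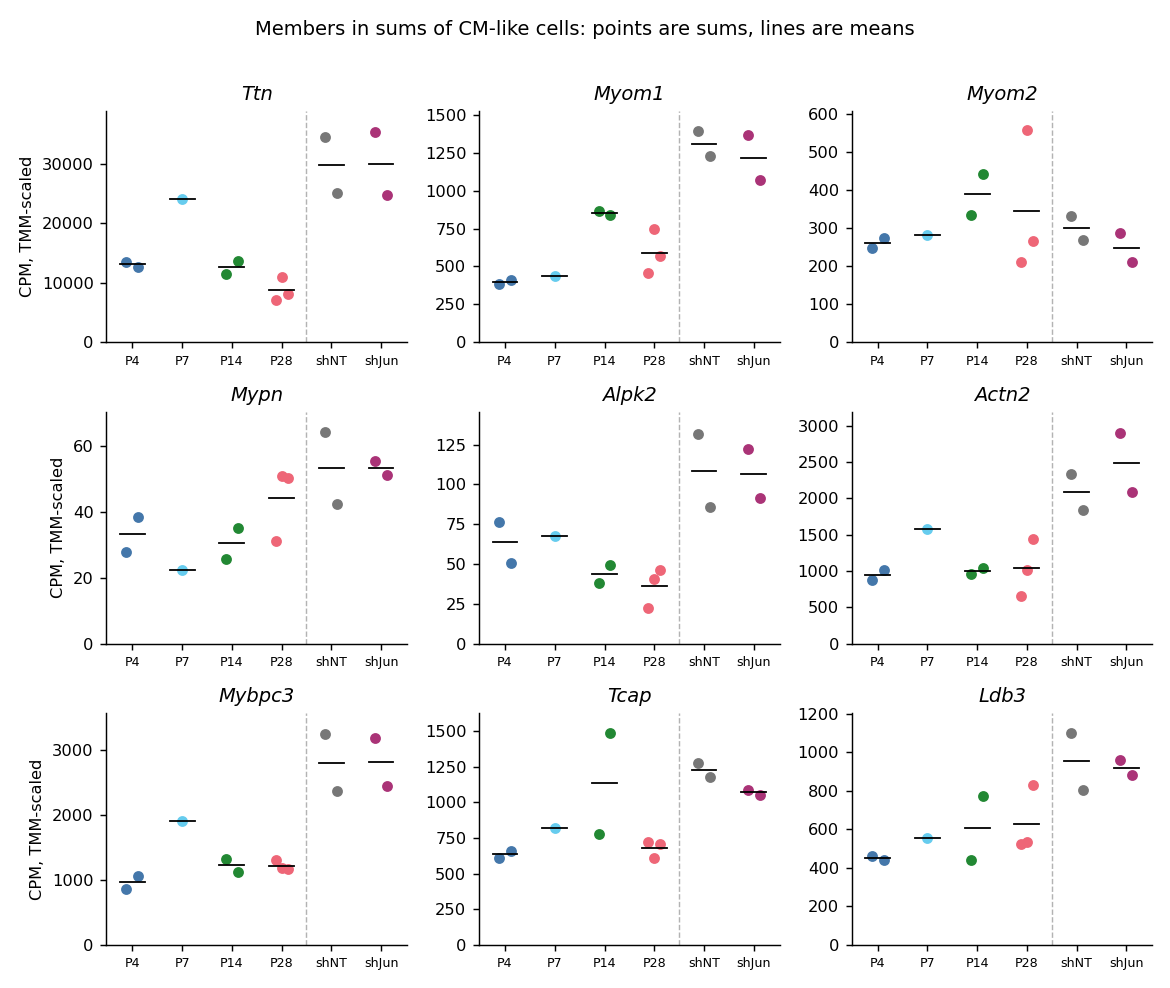
Levels of the 9 members in sums of CM-like cells, in CPM after TMM scaling, with a panel and a linear axis from 0 for each gene; points are chips (P4 to P28) or animals (shNT, shJun), short lines are group means, and the dashed line separates the wild-type and knockdown sums, which were scaled separately. No stage difference of a member passed the test, and Myom1 at P14 (867 and 839 CPM) lay above both P4 sums (385 and 413).

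A sum gives deep cells more weight than shallow ones, and Ttn was also read with every cell at the same depth, which also sets TMM scaling aside. The 2 CM-like clusters at P14 show the difference in weight: 418 cells held Ttn at 4993 CPM and 31 deeper cells at 22221 CPM. After thinning each cell to 1000 UMIs, a CM-like cell held on average 21.4 and 19.0 Ttn UMIs on the P4 chips, 5.92 and 7.55 on the P14 chips, and 6.24, 9.76 and 7.84 on the P28 chips. Both P4 chips lay above all P14 and P28 chips, whose ranges overlapped. The P28 mean of 7.95 ± 1.77 (SD, n = 3) was 0.393 times the P4 mean of 20.2 ± 1.70 (n = 2; two-sided exact permutation p = 0.2, the smallest this design allows). For P14 against P4 the ratio was 0.333 (exact permutation p = 0.333, again the smallest possible), while in the sums the log2 change of Ttn was −0.06 ± 0.50 with TMM scaling and −0.78 ± 0.46 with library totals. For P28 against P4, library totals gave −0.90 ± 0.41 for Ttn (unadjusted p = 0.0417, adjusted p = 0.231 in edgeR). Mybpc3 on the same scale had 1.42 and 1.58 UMIs at P4, 0.761 and 0.919 at P14 and 1.59, 1.08 and 1.26 at P28, a ratio of 0.873 for P28 against P4 with overlapping groups (exact permutation p = 0.6).

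Depth and the RNA of other cells differed between the stages as well. The median CM-like cell had 18934 and 33956 UMIs on the P4 chips, 10424 and 6827 on the P14 chips, and 5435, 38481 and 5244 on the P28 chips. P28 chip 3, with a median above that of both P4 chips, held 9.76 Ttn UMIs per 1000. Of the 7 erythroid markers 5 or more had UMIs in each of these sums. Globin and other erythroid markers summed to 253 and 377 CPM in the P4 sums and to between 3459 and 89642 CPM at P14 and P28, and their part in the levels was not tested. Endothelial markers summed to between 357 and 393 CPM at P4 against 565 to 1241 CPM at P14 and P28, and fibroblast markers to between 389 and 436 against 528 to 1656 CPM. All 10 endothelial and all 10 fibroblast markers had UMIs in each of these sums.

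The balance between Ttn and its partners does not depend on how the sums are scaled. Ttn supplied 79.2 and 76.3% of all UMIs of the 9 members at P4, 81.0% in the P7 sum, 70.7 and 70.2% at P14, and 64.4, 70.0 and 61.7% at P28. All P14 sums lay below all P4 sums, and all P28 sums below all P14 sums. The mean was 77.8 ± 2.11% (SD, n = 2) at P4 and 65.4 ± 4.24% (n = 3) at P28, a difference of −12.4 percentage points (two-sided exact permutation p = 0.2, the smallest this design allows). The P14 sums differed from P4 by −7.27 points (exact permutation p = 0.333) and the P28 sums from P14 by −5.12 points (exact permutation p = 0.2). These comparisons share sums and are not independent. The P14 step was −2.15 points, with overlapping groups, when only cells with a TDtomato UMI were used, and −3.28 points, also overlapping, with cells of at least 1000 genes. The step from P14 to P28 was −1.03 points with at most 5000 UMIs a cell, −5.21 points with the unnamed clusters whose best list was that of CMs, and −10.2 points with CMs called cell by cell, and in each of these the groups overlapped (exact permutation p = 1, 0.4 and 0.267).

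**Figure D2:**
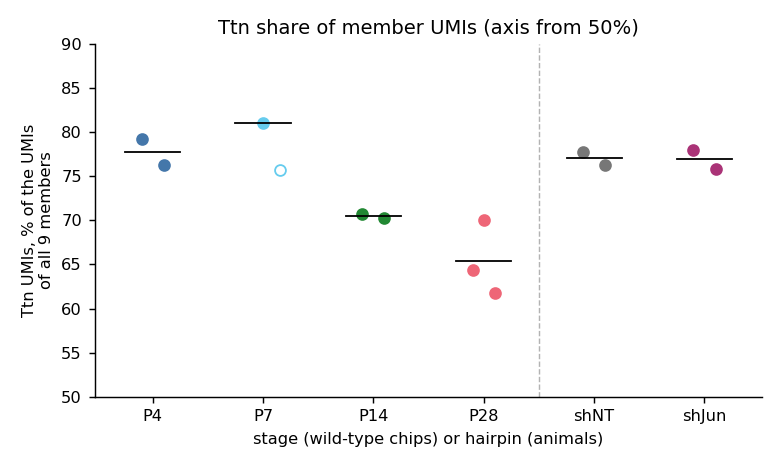
Ttn UMIs as a percentage of the UMIs of all 9 members in sums of CM-like cells, by stage or hairpin, on an axis that starts at 50%, with filled points for chips or animals, lines for their group means and an open point for P7 chip 1, which had too few cells for the tests (17 cells, 75.7%). P4 lies at 79.2 and 76.3%, P28 between 61.7 and 70.0%, and the knockdown animals between 75.8 and 78.0%.

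In UMIs Ttn stood far above each other member, at levels of 7117 to 24131 CPM where no other member exceeded 1901. Set per length the order was another, although counts of tagged molecules need not scale with the length of the exons. In the wild-type sums the median CPM per kilobase of annotated exon was 754 for Tcap, 281 for Mybpc3, 268 for Actn2, 104 for Ttn, 86.6 for Ldb3, 49.1 for Myom1, 31.4 for Myom2, 5.96 for Alpk2 and 5.69 for Mypn. The ranges over sums of Mybpc3 (206 to 457) and Actn2 (174 to 417) overlapped, as did those of Ttn (60.9 to 207) and Ldb3 (71.7 to 136), and those of Alpk2 and Mypn. Tcap, from 643 to 1572, stood clear above the rest. The order is a description on this scale alone.

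At the Z-disc, none of the 4 partners of titin passed the test between stages. Actn2 had 880 and 1020 CPM at P4, 957 and 1045 at P14, and 661, 1018 and 1435 at P28, and the P28 sums enclosed all others but the P7 sum (1582). Tcap had 612 and 660 CPM at P4, 820 at P7, 777 and 1490 at P14, and 721, 609 and 709 at P28. Its P14 level rests on chip 2, the only sum above 1000. Ldb3 had 459 and 438 CPM at P4, 553 at P7, 441 and 771 at P14, and 525, 531 and 831 at P28, so all P28 sums lay above both P4 sums (log2 change 0.49 ± 0.43, adjusted p = 0.609 in edgeR). Without TMM scaling the Ldb3 sums overlapped, with 600 and 503 CPM at P4 and 559, 477 and 865 at P28. Mypn, the rarest member beside Alpk2, had between 22.4 and 50.9 CPM in the 8 sums, with overlap between all stages that had several sums.

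Along the thick filament and at the M-band, Myom1 came nearest to a call. It had 385 and 413 CPM at P4, 437 at P7, 867 and 839 at P14, and 460, 745 and 568 at P28. Both P14 sums lay above all others, and all P28 sums lay above both P4 sums. The P14 level was 2.14 times that at P4 (log2 change 1.10 ± 0.46), with an unadjusted p of 0.0256 in edgeR that did not survive adjustment over all genes (adjusted p = 0.187). With library totals Myom1 changed by 0.37 ± 0.44, from 504 and 474 CPM without scaling at P4 to 573 and 689 at P14. The unscaled P28 sums were 489, 669 and 591 CPM and overlapped those of P4 and P14. Myom2 had 248 and 274 CPM at P4, 282 at P7, 335 and 442 at P14, and 211, 556 and 267 at P28, where chip 3 stood apart and the P28 sums enclosed those of P4. Mybpc3 had 859 and 1060 CPM at P4, 1901 at P7, 1326 and 1118 at P14, and 1308, 1180 and 1160 at P28. All later sums lay above both P4 sums, with a log2 change of 0.34 ± 0.41 at P28 (adjusted p = 0.728 in edgeR). Without TMM scaling they did not: Mybpc3 had 1123 and 1216 CPM at P4, 877 and 919 at P14, and 1392, 1060 and 1207 at P28.

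Alpk2 had its lower values at the later stages. It had 76.3 and 50.8 CPM at P4, 67.3 at P7, 37.9 and 49.0 at P14, and 22.4, 40.5 and 45.9 at P28. The P14 and P28 sums all lay below both P4 sums, and the log2 change from P4 to P28 was −0.81 ± 0.47 (adjusted p = 0.388 in edgeR). A single cell held 22.4% of the Alpk2 UMIs on P4 chip 1, 51.0% on P7 chip 2 and 64.3% on P14 chip 2.

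In all, 0 of the 9 members were called between P4 and P14, between P14 and P28 or between P4 and P28 by edgeR at an adjusted p under 0.05, and 0 by DESeq2, which called 8.91, 0.917 and 7.76% of the genes it tested in P14 against P4, P28 against P14 and P28 against P4. Of the 15502 genes tested, edgeR called 3.74% from P4 to P14 (2.24% higher, 1.50% lower), 0.0581% from P14 to P28 (0.0323% higher, 0.0258% lower) and 3.59% from P4 to P28 (1.99% higher, 1.60% lower). At an unadjusted p under 0.05, the members counted 1 (Myom1, P14 against P4), 0 and 0. The median log2 change of the members was 0.35, −0.17 and 0.34, against −0.11, 0.10 and −0.01 over all genes tested. The members' standard errors, from 0.41 to 0.55 on the log2 scale, set what could be seen with 8 sums. With library totals in place of TMM scaling, the P14 against P4 changes of Myom2, Actn2, Mybpc3 and Ldb3 were −0.13, −0.64, −0.38 and −0.25 in log2, where the main values were 0.57, 0.08, 0.35 and 0.43, so the directions of these 4 rest on the scaling.

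P7 could be read from 23 CM-like cells of a single chip, so the tests assume that P7 varies like the other stages. There Ttn was 2.13 times the mean of the other stages (log2 change 1.09 ± 0.49, unadjusted p = 0.0361, adjusted p = 0.254 in edgeR), with 31.8% of its UMIs from 1 cell. With both P7 chips, in sums of at least 10 cells, the Ttn change was 0.85 ± 0.35 (unadjusted p = 0.0233, adjusted p = 0.170 in edgeR). None of the 9 members was called by edgeR or DESeq2 (4.58% of its genes), against 1.99% of the 15502 genes in edgeR (1.66% higher, 0.329% lower), and 1 member (Ttn) had an unadjusted p under 0.05. The median log2 change over all genes was −0.52 in this comparison, and that of the members 0.06. P7 chip 1, with 17 CM-like cells, held 21570 Ttn CPM without TMM scaling, beside 29250 on P7 chip 2 and 14575 to 17710 on the P4 chips. Where cells were called CM one by one by marker score, 472 and 687 P7 cells entered in place of 17 and 23, the Ttn change was −1.42 and Mypn was called (log2 change −2.74, adjusted p = 0.0392). The P7 CM-like cluster held 40 cells over both chips. Apart from an unnamed cluster of 77 cells, with H2-Ab1 and Ptprc among its leading genes, all other P7 clusters were named after other cell types. The cell-by-cell setting thus took in cells of clusters named after other types. The P7 values of the members depend on whether such cells are counted as CMs.

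Other sarcomere genes were counted from lists beside the members. Of 19 Z-disc partners, 2 rose from P4 to P14 and 2 rose from P4 to P28, with none lower. Myoz2, which encodes a Z-disc protein that binds calcineurin, had 257 and 217 CPM at P4, 732 and 900 at P14 and 636 to 1136 at P28 (log2 changes 1.78 ± 0.47 and 1.84 ± 0.45, adjusted p = 0.0393 and 0.0256 in edgeR). Xirp2, an actin-binding repeat protein, had 113 and 70.3 CPM at P4, 264 and 331 at P14 and 401 to 578 at P28 (log2 changes 1.69 ± 0.47 and 2.41 ± 0.46, adjusted p = 0.0467 and 0.00491). Leaving out 1 sum ended the P14 calls of both genes for either P4 chip or either P14 chip, with adjusted p up to 0.293, and the P28 calls for either P4 chip. Without the atrial-marker cells described below, the P14 calls of both were lost too (adjusted p = 0.0614 and 0.0882). Without P28 chip 3 the P28 call of Myoz2 was lost as well (adjusted p = 0.0748).

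Of 16 M-band and titin-binding partners, 1 rose from P4 to P28: Trim54, a ubiquitin ligase of the MURF family, with 21.3 and 15.3 CPM at P4 and 49.8 to 121 at P28 (log2 change 2.04 ± 0.55, adjusted p = 0.0397 in edgeR). That call was lost without either P4 chip and without any of the 3 P28 chips, with adjusted p up to 0.268. Of 10 thick and thin filament genes, Lmod2, which lengthens thin filaments, rose from 95.8 and 113 CPM at P4 to 354 and 514 at P14 and 304 to 435 at P28 (adjusted p = 0.0180 and 0.0252 in edgeR). Its calls were lost without either P4 chip and, for P14, without P14 chip 2. Tnni1, the slow skeletal troponin I of the immature heart, had 2235 and 3098 CPM at P4, 1015 at P7, 1.69 and 0 at P14 and 2.49 to 19.6 at P28, and its fall was called under each of 25 alternatives in both comparisons. Tnnt1, slow skeletal troponin T, fell at P14 (log2 change −3.10 ± 0.82, adjusted p = 0.0393) but was called in only 10 of 25 alternatives. It was lost without either P4 chip, without P7 chip 2, without either P14 chip and without the atrial-marker cells (log2 change −1.71, adjusted p = 0.278). Of 14 regulators of sarcomere genes, among them Mef2a, Srf and the titin splicing factor Rbm20, 0 were called in these comparisons by edgeR, with 1 and 2 under an unadjusted 0.05 for P14 and P28 against P4. From P14 to P28 none of these 4 lists had a call in edgeR, with 1, 2, 3 and 0 genes under an unadjusted 0.05. At P7 the single call among them was Tnni1, higher than the mean of the other stages (adjusted p = 0.000151), where P7 was 1 sum. With both P7 chips the log2 change of Tnni1 was 5.10 ± 0.54 (adjusted p = 9.68e-05 in edgeR). P7 was not a peak: the P7 sum (1015 CPM) lay below both P4 sums (2235 and 3098). The mean of the other stages includes the P14 and P28 sums, at 0 to 19.6 CPM.

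Cells with atrial markers were part of the P4 material. A list of 6 atrial genes, Myl7, Sln, Nppa, Myl4, Mybphl and Bmp10, summed to 18774 and 23726 CPM in the P4 sums, to 240 in the P7 sum, to 1.73 and 8.06 at P14 and to between 49.5 and 585 at P28. Against P4, edgeR called 6 of the 6 lower at P14 and 5 of 6 lower at P28. After thinning to 1000 UMIs, 57 of 148 and 57 of 168 CM-like cells of the P4 chips held at least 3 of these 6 markers, against 0 or 1 cell on the other wild-type chips with CM-like cells. The P4 cells next to this limit were 5 and 14 with exactly 2 markers and 15 and 14 with exactly 3. The defining ventricular light chain Myl2 had 2447 and 2223 CPM in the atrial-marker cells and 13750 and 14681 CPM in the other CM-like cells.

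In these atrial-marker cells Mybpc3 was 591 and 636 CPM, against 1506 and 1529 in the other CM-like cells of the same chips, a ratio of 0.393 and 0.416. Ttn was 12024 and 10960 CPM against 21804 and 16522, a ratio of 0.551 and 0.663. Ldb3 stood at ratios of 0.767 and 0.680, Actn2 at 0.875 and 0.757 and Myom2 at 0.755 and 0.885. These 5 members were lower in the atrial-marker cells on both chips, although with 2 markers as the limit Myom2 stood at 1.03 on chip 2. Alpk2 was lower on both as well (0.472 and 0.799), but its mean ratio of 0.636 was 0.956 when 2 markers were enough and 0.322 when 4 were asked for. Tcap (1.05 and 0.911), Myom1 (0.732 and 1.06) and Mypn (0.628 and 1.36) differed in direction between the chips. The values come from cells of 2 chips with the same animal names, so no test was made. The share of all genes that were lower on both chips was not counted. Among the genes used to pick the atrial-marker cells, Myl7 had 24420 and 37347 CPM there and Sln 12844 and 20549. These UMIs are part of the totals behind the member CPM, and their part in the ratios was not tested. Without the atrial-marker cells the Ttn share of member UMIs differed by −13.2 points between P4 and P28, and 0 members were called in the stage comparisons by edgeR.

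**Figure D3:**
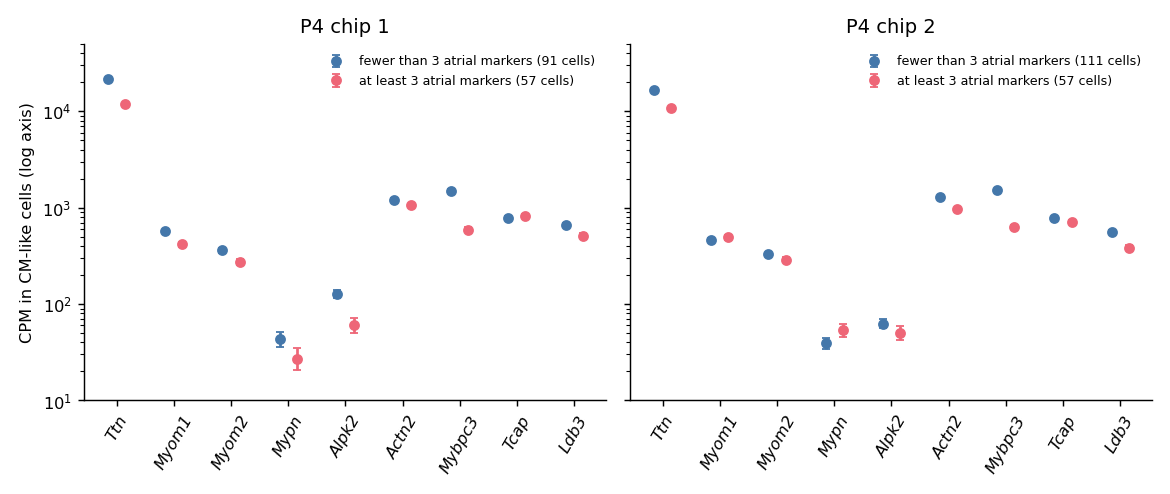
Levels of the 9 members in P4 CM-like cells with at least 3 of 6 atrial markers (57 cells on each chip) and in the other CM-like cells (91 and 111 cells), in CPM on a log axis, with exact 95% Poisson intervals as bars. The gap is widest for Mybpc3, at 591 against 1506 CPM on chip 1 and 636 against 1529 on chip 2.

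Cell-to-cell variation of Ttn, in UMIs and as variance over mean, was widest at P4, where its mean was also highest among the 7 wild-type chips with enough cells and where atrial-marker cells were part of the sample. At 1000 UMIs per cell the middle 80% of cells ran from 6 to 48.3 and from 5 to 44.3 Ttn UMIs on the P4 chips, from 1 to 11 and from 1 to 19.3 on the P14 chips, and from 2 to 11, 4 to 19 and 1 to 17 on the P28 chips. The ratio of variance to mean was 14.3 and 15.8 at P4, 7.75 and 9.53 at P14 and 4.16, 4.47 and 6.37 at P28. It was 4.08 to 5.12 in the knockdown animals, whose mean of 22.8 to 33.9 Ttn UMIs was above that of both P4 chips. Ttn depended on depth in different ways: between 3 equal groups of cells ranked by depth, from the shallowest to the deepest, it went from 24223 to 16677 and from 26617 to 11655 CPM on the P4 chips, but from 5877 to 8898 and from 7398 to 13472 on the P14 chips. On P28 chip 3 it was 9742 and 10391.

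Across cells of a chip, members followed Ttn unevenly. For Mybpc3 the correlation with Ttn (Pearson, log of 1 plus UMIs, cells thinned to 1000 UMIs) was 0.49 and 0.51 on the P4 chips, 0.28 and 0.11 at P14 and 0.21, 0.14 and 0.24 at P28. In the knockdown animals it was 0.16 and −0.04 for shJun and 0.18 and 0.15 for shNT. It was the highest of the 8 pairs with Ttn on 6 of the 7 wild-type chips with enough cells. Ldb3 reached 0.21 and 0.30 at P4 and lay between −0.01 and 0.15 on the later chips. Myom1 lay between 0.05 and 0.22 and Actn2 between 0.00 and 0.30. Tcap was apart from the other partners, with −0.07 on both P4 chips and −0.08 to 0.09 later. Across the 3 depth groups of P4 cells, shallowest to deepest, Tcap rose from 454 to 889 and from 465 to 790 CPM. Mybpc3 (1527 to 1057 and 2309 to 992) and Ldb3 (847 to 507 and 901 to 436) fell, as Ttn did. Actn2 and Myom1 rose slightly on chip 1 and fell on chip 2. The part of depth in these correlations was not tested. Cells of a chip share library, depth and free RNA, and these values are descriptions over 148 to 661 cells a chip.

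The median over all 36 pairs of members was 0.041 and 0.066 at P4, 0.006 and −0.013 at P14 and between 0.003 and 0.034 at P28. Medians over all pairs of well-detected genes lay between −0.0015 and 0.013, with 95th percentiles from 0.072 to 0.179 on the wild-type chips. At this depth the members other than Ttn had at most 1.59 UMIs a cell on average on these chips. Of the 36 pairs, 10 and 15 were above 0.1 on the P4 chips (27.8 and 41.7%, against 14.2 and 13.4% of all gene pairs), 9 and 6 on the P14 chips (25 and 16.7%, against 10.2 and 18.9%), and 3 on each P28 chip (8.33%, against 1.26 to 4.03%).

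Thinning less, to 10000 UMIs, keeps fewer cells but more UMIs a cell. The correlation of Ttn and Mybpc3 was then 0.58 and 0.56 at P4, 0.41 on P14 chip 1 and 0.49, 0.25 and 0.46 at P28. Ttn and Tcap stood at −0.29 and −0.30 on the P4 chips and between −0.13 and 0.21 on the later ones. Among P4 cells without the atrial markers, the highest member correlations at 1000 UMIs were 0.41 and 0.49. The depth of 10000 UMIs was added after the values at 1000 UMIs had been seen.

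**Figure D4:**
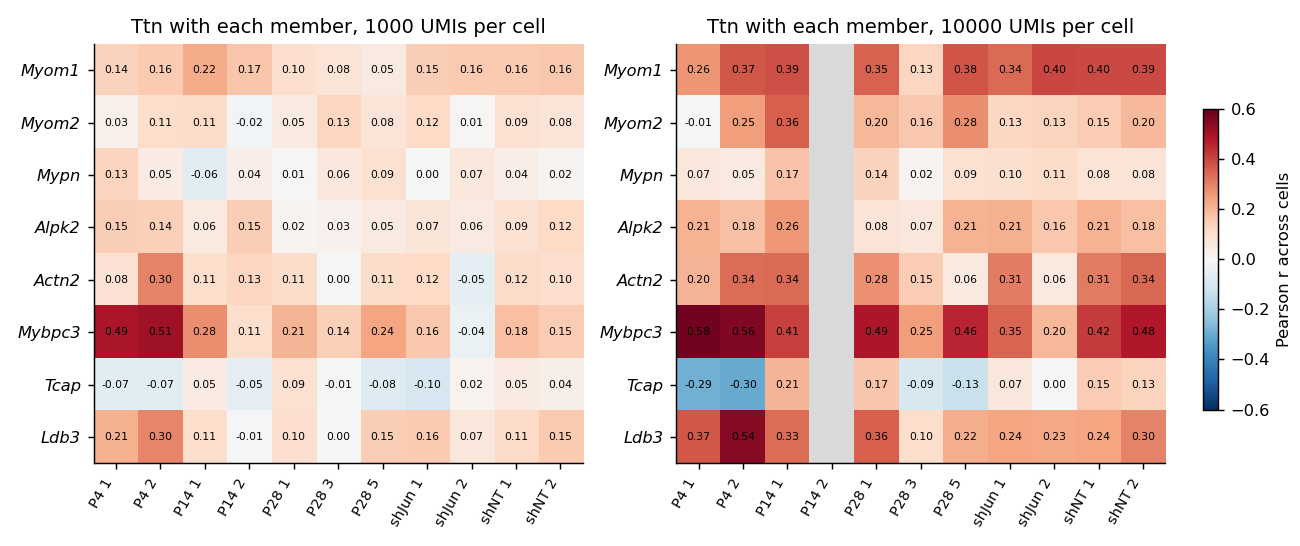
Pearson correlation of Ttn with each other member across CM-like cells of a chip (P4 to P28) or knockdown animal, with cells thinned to 1000 UMIs (left) and 10000 UMIs (right), where colour and number give the same value and grey marks P14 chip 2, which had too few cells at 10000 UMIs. Mybpc3 gives the highest values, up to 0.58, and Tcap is negative on both P4 chips (−0.29 and −0.30 at 10000 UMIs).

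Among 305 genes detected in at least 10% of thinned cells of all 11 chips and animals, those most like Ttn were Myh6, the main cardiac myosin heavy chain (mean correlation 0.34), Atp2a2, the calcium pump of the sarcoplasmic reticulum (0.33), and Ryr2, its release channel (0.27). Myh6 was also first for Mybpc3 (0.19), Actn2 (0.13) and Myom2 (0.08), and Atp2a2 for Ldb3 (0.14) and Myom1 (0.08). Tcap again stood apart, with Tnni3 (0.10), Tpm1 (0.09) and Cox4i1 (0.09) as its nearest. Mypn was nearest to Sdha (0.06) and Alpk2 to Casq2 (0.05). Myh6, Atp2a2 and Ryr2 were also among the markers by which the CM-like clusters were named. The means run over 7 chips and 4 animals, and those of Myom1, Myom2, Mypn and Alpk2 are weak in counts as sparse as these.

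Knockdown of Jun was read in the 4 animals. Jun had 26.6 and 29.7 CPM in the shJun sums and 54.0 and 64.4 CPM in the shNT sums. The groups did not overlap, and the shJun level was 0.475 times that of shNT (log2 change −1.07 ± 0.24, unadjusted p = 0.00409 in edgeR). After adjustment over all genes it was not called (adjusted p = 0.9998 in edgeR and 0.220 in DESeq2). The change lay between −0.64 and −1.19 in log2 over the 15 alternatives.

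No member was called between the hairpins. Ttn had 35338 and 24743 CPM in the shJun sums and 34520 and 25067 in the shNT sums. The first animal of each hairpin, run on the same chips, was thus high and the second low. The first shNT sum also held 79 of the 80 CM-like cells of chip 5, which carried the other cell fraction. Actn2 had 2898 and 2082 against 2331 and 1841, Mybpc3 3178 and 2443 against 3240 and 2358, and Tcap 1088 and 1055 against 1274 and 1179. For Tcap the log2 change was −0.19 ± 0.20. Between animals of the same chips, Actn2 was higher in shJun both times and Myom2 lower both times, with 286.5 against 331.5 and 210.2 against 267.4 CPM. Tcap was lower both times as well. Not every member is listed in this way, and the share of all genes with the same direction both times was not counted. In a fit of sums per animal and chip, with the chip as a block, Myom2 changed by −0.32 ± 0.09 (unadjusted p = 0.00766, adjusted p = 0.584 in edgeR), Actn2 by 0.13 ± 0.07 (adjusted p = 0.830) and Jun by −1.16 ± 0.21 (adjusted p = 0.201). That fit counts sums of the same animal on different chips as replicates. Its SE and p therefore do not measure the spread between animals. Ldb3, whose promoter window holds the AP-1 match shown above, had 957 and 881 against 1101 and 802 (log2 change −0.05 ± 0.24). The log2 changes of the 9 members lay between −0.27 (Myom2) and 0.26 (Actn2), with standard errors of 0.20 to 0.32.

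In edgeR 0 of the 9 members and 0% of the 17747 genes were called, with 380 genes and 0 members under an unadjusted p of 0.05, while DESeq2 called 14 of 20300 genes and no member, and the fit with the chip as a block 23 of 15241 (1 higher, 22 lower) and no member. The Ttn share of member UMIs was 78.0 and 75.8% in the shJun animals and 77.8 and 76.3% in the shNT animals. Every list of other sarcomere genes had 0 calls in edgeR, with 0 under an unadjusted 0.05 except for 1 of 5 atrial markers tested.

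Beside the wild-type P28 chips, the knockdown animals held more Ttn per cell (22.8 to 33.9 against 6.24 to 9.76 UMIs per 1000), and a higher Ttn share (75.8 to 78.0% against 61.7 to 70.0%). They were run on other chips, no wild-type chip was run beside them, and no test was made.

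Ttn was also counted in cells that should lack it. On the 6 wild-type chips with enough cells of both kinds, summed endothelial-like and fibroblast-like cells had 1270 to 1794 Ttn CPM, or 4.50 to 23.5% of the level in CM-like cells. On knockdown chips 3 and 4 these cells had 71.6 and 71.8% of the CM-like level, on chip 1 43.1% and on chip 5, which held the other cell fraction, 10.8%. Wells of knockdown chips kept as empty controls gave 22347 Ttn CPM, against 1925 on wild-type chips. The part of this background in the knockdown levels was not tested.

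**Figure D5:**
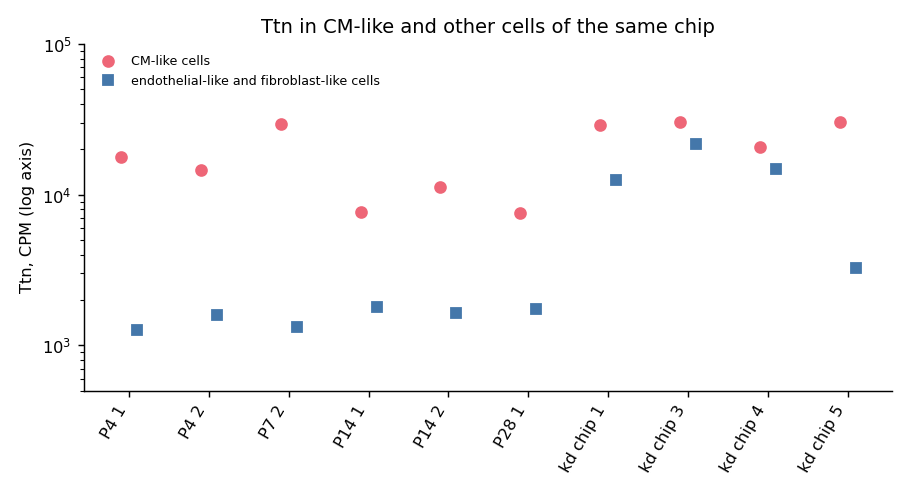
Ttn in CM-like cells and in endothelial-like and fibroblast-like cells of the same chip, in CPM of summed cells on a log axis. On the wild-type chips the other cells lie at 4.50 to 23.5% of the CM-like level, and on knockdown chips 3 and 4 at 71.6 and 71.8%.

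The mix of members differed outside the CM-like cells. Per 1000 Ttn UMIs, the other cells held more Tcap than the CM-like cells on 6 of 6 wild-type chips, by a median factor of 1.82 (1.34 to 4.35). Myom2 (1.18 to 3.01) and Actn2 (1.01 to 2.44) were also above on 6 of 6 chips, and Mybpc3 on 5 of 6 (0.920 to 2.65). Alpk2 was above on 1 of 6 (0.349 to 1.41). Depth differed between these cells: on P4 chip 1 the median was 8796 UMIs in the other cells and 18934 in CM-like cells.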

How the data were processed

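Cells of mouse hearts were captured in nanowells (ICELL8), 18 chips in all. The authors deposited raw UMI counts per gene and well, with neither filter nor scaling. Per the labels and the study's methods, reads were aligned to mm10 with STAR 2.5.2b and assigned to genes with featureCounts (Subread 1.4.6-p1). In all 23656 wells the counts summed to the UMIs of the well tables. Hairpin and animal of a well were taken from those tables.

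CPM, sums and thinned counts were computed here. Wells with at least 500 genes and log10 UMIs within 2 SD of the mean of their stage or knockdown animal were clustered within that stage or animal (scanpy 1.11.5, leidenalg 0.10.2) without the members and listed genes, and each cluster was named after the marker list with the highest score unless too few of those markers were detected, the cluster was shallow, or its leading genes held more markers of another list. No doublet caller was run. CM-like cells with UMIs of at least 3 markers of another class were left out in an alternative. UMIs were summed over CM-like cells per chip (at least 20 cells) or knockdown animal, which gave 1175509 to 24578082 UMIs a wild-type sum and 36365076 to 68559181 a knockdown sum, without mitochondrial genes. Spike-in and reporter columns were left out. Sums were tested with edgeR 4.0.16 (glmQLFTest, TMM scaling, filterByExpr, Benjamini-Hochberg 0.05 over all genes) in R 4.3.3, with DESeq2 1.42.0 as an alternative. The scripts were tested on simulated data. Levels are relative to all UMIs of the summed cells, and for RNA of other cell types in a sum, fewer such cells and less RNA per cell cannot be told apart. Poisson intervals cover counting error only. Correlations used cells thinned to 1000 UMIs. GENCODE vM21 gave symbols, and RefSeq the promoters.

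The members and lists were chosen with earlier results of these data known. Named are the 9 members, at most 4 genes with the smallest p of each list and comparison, the 3 genes most correlated with each member, and Jun. Wells reuse barcodes: 4902 of 5070 occurred on more than 1 chip, as the nanowell barcodes are a fixed set.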

Additional observations from a re-analysis of the deposited data

Results flagged for a closer look

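Ttn was counted in data outside the comparisons, which is what marked the following results. Wells kept as empty controls held 22 Ttn UMIs among 11426 on the wild-type chips (60 wells) and 902 among 40364 on the knockdown chips (30 wells). All members together made up 0.394 and 3.06% of the UMIs of these wells.

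CM-like cells of chips with too few of them for a sum also held Ttn. P7 chip 1 had 19741 Ttn UMIs in 17 cells. P28 chip 4 had 724 in 4 cells, of which 52.8% came from 1 cell, and P28 chip 6 had 105 in 5 cells, of which 99.0% came from 1 cell. No group had the 4 sums of CM-like cells that the check for a sum far from the others needs.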

How the results depend on the processing

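No member was called under any alternative by edgeR or DESeq2 except at P7, where calling CMs cell by cell gave 1 member (Mypn). At P4 and P7 that setting took in cells of clusters named after other cell types. Of the member changes under an alternative, 993 kept their direction or moved by less than their SE, 23 reversed and 1 became a call. With CMs called cell by cell, log2 changes reversed for Ttn (0.44), Mypn (0.65) and Alpk2 (0.22) at P14 against P4, for Ttn (0.23) and Alpk2 (0.37) at P28 against P4, and at P7 for Ttn (−1.42), Alpk2 (−1.95), Actn2 (−1.02), Mybpc3 (−1.20) and Tcap (−1.17). With library totals, they reversed at P14 against P4 for Myom2 (−0.13), Actn2 (−0.64), Mybpc3 (−0.38) and Ldb3 (−0.25), and at P28 against P14 for Mybpc3 (0.44). With at most 5000 UMIs a cell, Mypn was −0.094 at P28 against P4, and Actn2 −0.0084 and Tcap −0.60 at P7. Mypn was 0.43 at P14 against P4 in cells of at least 1000 genes, and leaving out P28 chips in turn gave Myom2 −0.12 (without chip 3) to 0.67 at P28 against P4. Leaving out animals in turn gave, for shJun against shNT, −0.28 to 0.33 for Mypn, −0.31 to 0.32 for Alpk2 and −0.27 to 0.20 for Ldb3. The cause was not tested.

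The median correlation of the 36 pairs, averaged over chips, moved with the number of UMIs kept. At P4 (0.0534) it was 0.0183 at 500 UMIs, 0.0807 at 2000, 0.105 at 10000 and 0.0314 without the logarithm. At P14 (−0.00341) it was 0.0341 at 500, 0.0208 at 2000, 0.181 at 10000, 0.0379 without cells with markers of another class and 0.0912 in cells of at least 1000 genes. At P28 (0.0232) it was 0.0540 at 2000 and 0.0910 at 10000, and in the knockdown animals (0.0185) 0.0322 and 0.0821.

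The number of genes called ranged over the alternatives from 38 to 1373 for P14 against P4, 0 to 130 for P28 against P14, 74 to 1141 for P28 against P4, 1 to 640 for P7 and 0 to 369 for shJun. The Ttn share of member UMIs was lower at P28 than at P4 in every setting, by 10.6 to 16.6 points. Library totals, the settings on atrial markers, the deepest cells the depth of 10000 UMIs and leaving out 2 CM-like clusters led by genes of other cell types were chosen after seeing the data. No paired analysis was possible because the labels give no replicate numbers that the stages share. The knockdown animals shared chips, and a fit of sums per animal and chip with the chip as a block called 23 genes and no member. The main fit of sums per animal called 0 genes. These fits differ in the number of sums as well as in the block. With 8 and 4 sums, the SE of the member changes was 0.20 to 0.65, and changes larger than their SE could also go uncalled. Myom1 at P14 against P4, at 1.10 ± 0.46 in log2, was not called.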
